A study of Mus musculus with 14 samples.

Results

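The genes described here are 10 nuclear genes of the mitochondrial ATP synthase, taken by name: Atp5a1, Atp5b, Atp5c1 and Atp5d of the catalytic F1 head and central stalk, Atp5f1 and Atp5h of the peripheral stalk, Atp5g1, Atp5g2 and Atp5g3 for the membrane ring, and Atpif1 for the inhibitor protein IF1. The rule used no measured value, but the genes were chosen with earlier results of these data known. They are 10 of the 35275 genes in the deposited table, and all 10 passed the filter on low values (3 or more of the 14 animals with an FPKM of 1 or higher), which left 13079 genes for testing. FPKM is the number of fragments divided by transcript length and library size, so levels of different genes can be set side by side. Such a comparison rests on the length used for each gene, which is not given in the sources used here.

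RNA-seq was made from brown adipose tissue of 14 C57BL/6 mice of 8 weeks, and every mouse carried the loxP-flanked Lrpprc allele (LrpprcFF). The controls were LrpprcFF without Cre, and the knockouts were LrpprcFF Ucp1-Cre, in which the Ucp1 promoter drives the recombinase. Ucp1 is the uncoupling protein of brown adipocytes, so the deletion is aimed at these cells and not at the others of the tissue. Mice were housed at 22 °C (4 controls and 4 knockouts) or at thermoneutrality, 30 °C (3 controls and 3 knockouts). The labels give brown adipocytes as the cell type, but the RNA came from homogenized tissue. The animals carry individual identifiers and no pairing, and numbers below only name animals within a group. Identifiers of controls 3 and 4 at 22 °C begin with R, and all others with E; what the letter stands for is not stated.

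Several features of the libraries touch the results below. Depth recovered from the FPKM values was 15.84 to 21.44 M fragments. Lrpprc stood at 30.8% of the control mean at 22 °C (exact two-sided permutation p = 0.0286, the smallest that 4 against 4 allows) and at 27.0% at 30 °C (exact two-sided permutation p = 0.1, the smallest that 3 against 3 allows), and its groups did not overlap at either temperature. The 9 brown adipocyte markers were present in every animal. The 12 skeletal muscle markers were also present in every library, with a summed scaled FPKM from 26.6 in control 3 to 15854 in control 1, both at 30 °C. The Y-linked transcripts summed to at least 37.1 in the animals at 22 °C and to at most 0.0840 at 30 °C, and Xist was high only at 30 °C, so that sex and housing temperature cannot be told apart.

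ATP synthase turns the proton gradient across the inner mitochondrial membrane into ATP. Protons pass between subunit a, which is encoded by mitochondrial DNA, and a turning ring of c subunits; the ring drives the central stalk (gamma, delta and epsilon) inside the head, where the beta subunits make ATP, while the peripheral stalk holds the head still. Brown fat holds little ATP synthase for its dense respiratory chain, because UCP1 lets protons return without ATP synthesis, and supply of subunit c is known to limit how much of the complex is built there. LRPPRC binds and stabilises messenger RNAs made from mitochondrial DNA.

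Subunit c has an unusual origin: Atp5g1, Atp5g2 and Atp5g3 encode precursors that differ in their import sequences and yield the same mature protein. In the GENCODE M21 annotation (GRCm38) the precursors had 136, 146 and 141 residues, and their last 78 residues were identical. The coding bases of those 78 residues are shown because the RNA of 3 genes can be told apart only where these bases, or those outside them, differ. Capitals mark the 63 of 234 positions that the 3 genes did not share.
Atp5g1 coding: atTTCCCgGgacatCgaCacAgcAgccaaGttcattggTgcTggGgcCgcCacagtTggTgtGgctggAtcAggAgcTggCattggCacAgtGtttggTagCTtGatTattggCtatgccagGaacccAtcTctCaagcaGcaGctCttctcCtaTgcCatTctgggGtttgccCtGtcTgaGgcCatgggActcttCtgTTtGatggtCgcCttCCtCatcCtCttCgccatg
Atp5g2 coding: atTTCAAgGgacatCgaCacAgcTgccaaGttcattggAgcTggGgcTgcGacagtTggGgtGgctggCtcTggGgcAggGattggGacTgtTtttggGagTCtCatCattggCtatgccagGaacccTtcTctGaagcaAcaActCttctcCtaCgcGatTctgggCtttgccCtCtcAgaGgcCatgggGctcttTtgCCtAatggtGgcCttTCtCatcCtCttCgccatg
Atp5g3 coding: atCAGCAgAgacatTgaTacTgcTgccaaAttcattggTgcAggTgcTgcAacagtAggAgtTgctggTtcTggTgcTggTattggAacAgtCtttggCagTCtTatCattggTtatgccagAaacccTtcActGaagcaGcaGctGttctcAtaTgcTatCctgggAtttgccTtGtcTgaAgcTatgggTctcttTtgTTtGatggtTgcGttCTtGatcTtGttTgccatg

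Over these 234 bases Atp5g1 and Atp5g2 were 84.6% identical with a longest shared run of 20 bases, Atp5g1 and Atp5g3 78.6% with a run of 11, and Atp5g2 and Atp5g3 77.4% with a run of 8. Read length and the treatment of reads that map to several places are not given in the sources used here. The deposited table held 0 pseudogenes named after any of the 10 genes.

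The promoters of the 3 ring genes are shown because the levels of their RNA differed. RefSeq windows (GRCm38.p6, around the annotated start) were found for 9 of the 10 genes; Atp5a1 had none. Capitals mark matches, on either strand, to CGCATGCG (the core bound by NRF1), AAGGTCA (bound by estrogen-related receptors), CCGGAAG (ETS factors), AAGATGGC (YY1) or GGGCGG (SP1).
Atp5g1 promoter, chr11:96075582-96075881, minus strand: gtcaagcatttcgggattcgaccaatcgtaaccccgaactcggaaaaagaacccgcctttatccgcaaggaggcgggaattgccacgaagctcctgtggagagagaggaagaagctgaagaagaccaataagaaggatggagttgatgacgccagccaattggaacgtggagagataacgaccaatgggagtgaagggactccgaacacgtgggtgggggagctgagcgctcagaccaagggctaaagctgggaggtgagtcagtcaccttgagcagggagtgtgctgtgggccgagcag
Atp5g2 promoter, chr15:102670998-102671297, minus strand: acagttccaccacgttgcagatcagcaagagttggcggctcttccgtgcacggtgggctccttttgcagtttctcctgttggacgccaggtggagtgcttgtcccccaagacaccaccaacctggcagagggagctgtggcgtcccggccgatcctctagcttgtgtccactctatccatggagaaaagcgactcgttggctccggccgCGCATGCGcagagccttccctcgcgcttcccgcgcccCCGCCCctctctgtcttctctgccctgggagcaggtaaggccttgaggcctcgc
Atp5g3 promoter, chr2:73911277-73911576, minus strand: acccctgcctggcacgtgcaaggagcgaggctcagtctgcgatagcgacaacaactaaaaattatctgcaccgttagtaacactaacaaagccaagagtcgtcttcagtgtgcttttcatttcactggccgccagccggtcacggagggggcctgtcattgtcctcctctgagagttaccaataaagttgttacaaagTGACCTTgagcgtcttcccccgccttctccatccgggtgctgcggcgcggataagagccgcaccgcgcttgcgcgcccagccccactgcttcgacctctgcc

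The Atp5g1 window held none of the searched letters. Atp5g2 held the NRF1 letters, as do 1.87% of all 32851 windows, and the SP1 letters, as do 35.7%. Atp5g3 held the estrogen-related receptor letters, which occur in 4.72% of windows. Among the other genes with a window, Atpif1 also held the estrogen-related receptor letters, Atp5h the ETS letters (8.86% of windows) and Atp5f1 the YY1 letters (2.75% of windows). The SP1 letters lay in Atp5b, Atp5f1 and Atpif1 as well. A match describes the letters alone.

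Levels, as FPKM scaled between libraries, spanned 3 orders of magnitude and kept much the same order in the 4 groups. In controls at 22 °C the beta subunit gene Atp5b stood highest (mean 3462 ± 632, SD, n = 4), followed by the alpha gene Atp5a1 (1503 ± 244), the stalk gene Atp5h (747 ± 48.7) and Atp5d (601 ± 83.5). Atp5g3 (371 ± 38.2), Atp5c1 (307 ± 33.1), Atp5f1 (263 ± 20.9) and Atp5g2 (185 ± 14.1) formed the middle. Atp5g1 (5.61 ± 4.55) and Atpif1 (3.17 ± 1.06) stood far below. Of the neighbours in this order, the ranges of Atp5h and Atp5d overlapped, as did those of Atp5g3 and Atp5c1, of Atp5c1 and Atp5f1, and of Atp5g1 and Atpif1. At 30 °C Atp5d came before Atp5h and Atp5g2 before Atp5f1 in both genotypes, Atp5g2 also came before Atp5c1 in knockouts, and the order was otherwise as at 22 °C.

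The low pair rested on few fragments in some libraries. At the length of the shortest annotated coding transcript (596 and 462 bases), libraries held about 17 to 318 fragments of Atp5g1 and 12.8 to 92.6 of Atpif1. The longest annotated coding transcripts have 4715 and 539 bases. Which length was used for the deposited FPKM is not given, and a longer one would mean more fragments. At the shortest lengths, the counting error of Atp5g1 and Atpif1 is larger, relative to the level, than that of the other 8 genes.

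**Figure D1:**
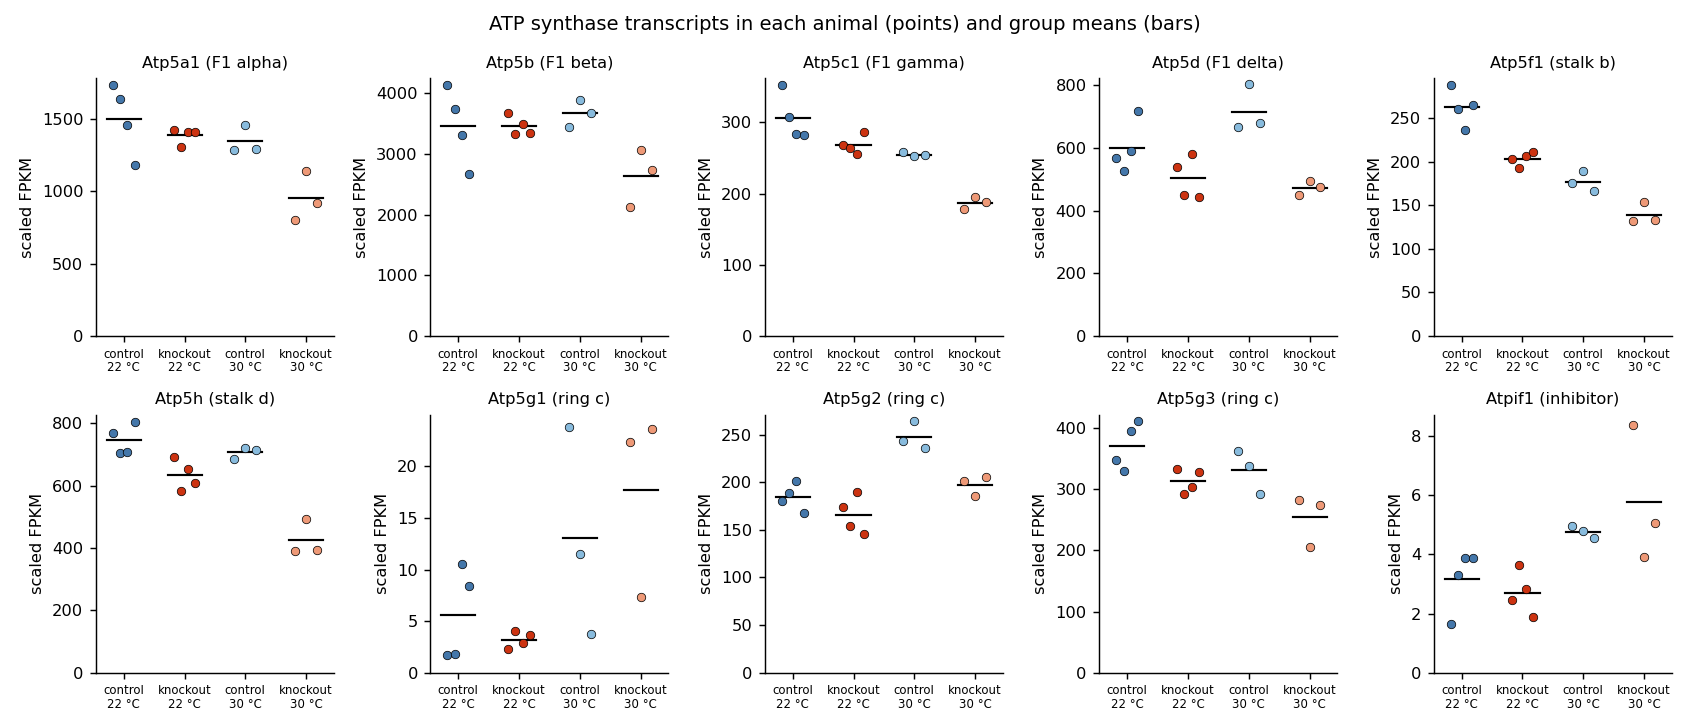
Scaled FPKM (vertical axes, linear, from 0, a separate scale per gene) of the 10 genes in each of the 14 animals, with points for animals and bars for group means. Knockouts at 30 °C were the lowest group for 7 genes, while Atp5g2 was lowest at 22 °C and Atp5g1 and Atpif1 were low and scattered.

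Knockout against control at 22 °C asks what loss of LRPPRC did in mice that have to defend their body temperature. No gene of the 10 passed the threshold (adjusted p under 0.05, limma over all genes). Of all 13079 genes, 1.97% were called in either direction and 1.06% were lower. Atp5f1 and Atp5h, 2 of the 10, had an unadjusted p under 0.05, as did 2060 of all genes. The log2 fold change was below 0 for 9 of the 10 with a median of -0.21, beside 0.0021 over all genes. With FPKM as deposited the genes' median turned to 0.069, but the median of all genes then stood at 0.24, so that the 10 lay 0.17 below it, and with quantile normalization both were near 0 (0.0035 and 0.010).

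Neither of the main head genes was called at 22 °C. Atp5b, the catalytic beta subunit, was at 4141, 3736, 3308 and 2663 in controls and 3678, 3319, 3495 and 3341 in knockouts. The knockouts lay inside the control range, and the log2 fold change was 0.016 (SE 0.15, adjusted p = 0.975), or 1.29 with quantile normalization. Atp5a1, the alpha subunit, was at 1735, 1638, 1459 and 1180 in controls and at 1424, 1305, 1411 and 1413 in knockouts (-0.10, SE 0.14, adjusted p = 0.771). Both genes were widest in controls, in which the animals with R identifiers were the lowest pair. Without that pair Atp5b was at -0.19 and Atp5a1 at -0.28, neither of which passed the threshold.

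The peripheral stalk gene Atp5f1 (subunit b) came nearest to a call at 22 °C. Its controls were at 288, 261, 237 and 266, and its knockouts at 203, 193, 207 and 211. Every knockout lay below every control, with a log2 fold change of -0.37 (SE 0.089, adjusted p = 0.0543). The call was made without control 3 at 22 °C or without knockout 2 at 30 °C (adjusted p over all alternatives 0.0093 to 0.639). Atp5h (subunit d), the other stalk gene, was at 768, 705, 709 and 806 in controls and at 693, 585, 653 and 607 in knockouts. These groups also did not overlap, but the difference of -0.24 did not pass (adjusted p = 0.280) and turned to 0.068 with FPKM as deposited.

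The remaining members gave smaller or less certain differences at 22 °C. Atp5d was at -0.25 (95% interval -0.52 to 0.015), Atp5g3 at -0.23 (-0.50 to 0.027), Atp5c1 at -0.19 (-0.38 to 0.0058) and Atp5g2 at -0.16 (-0.37 to 0.059). Atpif1 was at -0.16 (-0.64 to 0.33). With FPKM as deposited all 5 turned above 0 (0.050 to 0.15). For Atp5g1 the interval of -1.59 to 0.86 leaves the direction undetermined.

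Knockout against control at 30 °C puts the same question to mice with little thermogenic demand, and here 4 of the 10 genes fell and none rose. The share of all genes that was lower was 5.29%, and 8.82% were higher. The genes that fell were Atp5h (subunit d, -0.74, SE 0.12, adjusted p = 0.00236), Atp5d (delta, -0.59, SE 0.14, adjusted p = 0.0165), Atp5c1 (gamma, -0.44, SE 0.10, adjusted p = 0.0131) and Atp5f1 (subunit b, -0.35, SE 0.10, adjusted p = 0.0395). These are both peripheral stalk genes and both central stalk genes of the 10, but the threshold set this grouping. Atp5a1 (-0.51) and Atp5b (-0.49) lay further below 0 than Atp5c1 and Atp5f1 without passing. In the limma fit 8 of the 10 had an unadjusted p under 0.05, as did 3706 of all genes. The median over the 10 genes was -0.41, beside 0.064 over all genes, and 8 of the 10 were below 0. With quantile normalization these medians were -0.13 and -0.043, so the distance between them shrank from -0.48 to -0.083.

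Atp5h was at 687, 722 and 715 in controls and at 391, 492 and 393 in knockouts. The highest knockout stood well below the lowest control, and the gene was called in every one of the 26 alternatives run for it (adjusted p 0.00013 to 0.0418). Atp5d was at 666, 803 and 678 against 450, 494 and 475. Atp5c1 was at 258, 252 and 254 in controls, a very tight group, against 179, 195 and 188. Atp5f1 was at 176, 189 and 166 against 132, 153 and 133. None of these 4 genes overlapped between the genotypes at 30 °C. They were picked by a fit to these same values, so the separation adds no support. With 3 against 3, even full separation gives an exact two-sided permutation p of 0.1. The share of all genes without overlap was not counted, here or in the other comparisons. Single libraries decided 3 of the calls: only Atp5h was called without knockout 1, and only Atp5h and Atp5c1 without knockout 3 or without control 2. Atp5f1 was lost in 8 of the 14 fits that leave out 1 animal. The scaling mattered too, with 1 gene called on FPKM as deposited or quantile-normalized values (Atp5h) and 2 on an equal nuclear total (Atp5d and Atp5h).

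The alpha and beta genes missed the threshold at 30 °C, and their groups did not overlap. Atp5a1 was at 1285, 1458 and 1292 in controls and 804, 1138 and 921 in knockouts (-0.51, SE 0.16, adjusted p = 0.0506). Atp5b was at 3447, 3882 and 3679 against 2129, 3062 and 2726 (-0.49, SE 0.18, adjusted p = 0.0818), and it turned to 1.0 with quantile normalization, where the rank of the most abundant transcripts sets their value. Knockout 1 was the lowest animal for both genes. The ring genes Atp5g2 (243, 265 and 236 against 201, 186 and 205) and Atp5g3 (362, 339 and 292 against 283, 206 and 275) gave -0.33 (adjusted p = 0.0771) and -0.38 (adjusted p = 0.0866), also without overlap.

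Atp5g1 and Atpif1 were the members above 0 at 30 °C, and neither passed. Atp5g1 was at 23.9, 11.5 and 3.76 in controls and at 22.3, 7.29 and 23.6 in knockouts (0.56, SE 0.65, adjusted p = 0.629). Atpif1 was at 4.95, 4.80 and 4.54 against 8.38, 3.91 and 5.07 (0.18, SE 0.26, adjusted p = 0.703). The knockouts of both genes were widely scattered around the control mean.

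Markers of cell types differed between the same groups at 30 °C, where 8.82% of all genes were called higher and 5.29% lower. The summed scaled FPKM of the 9 brown adipocyte markers was 6009 to 8016 in controls and 2863 to 4050 in knockouts. By limma 5 of 9 were called lower, among them Ucp1 (-1.31, adjusted p = 0.0302), and 0 higher. Not all ran with the sum: Dio2 (0.94 to 8.68 in controls and 4.59 to 10.3 in knockouts) and Ppargc1a (2.75 to 4.10 and 3.66 to 4.47) leaned higher, with overlap. The 5 markers of adipocytes in general summed to 9790 to 11634 and 5471 to 7513, with 2 of 5 called lower. The 10 macrophage markers summed to 80.7 to 369 in controls and 571 to 2078 in knockouts, with 10 of 10 called higher, and none of these lists had a marker at 0 in those animals. Their part in the lower ATP synthase transcripts was not tested. In tissue RNA, fewer cells of a type and less RNA per cell cannot be told apart.

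**Figure D2:**
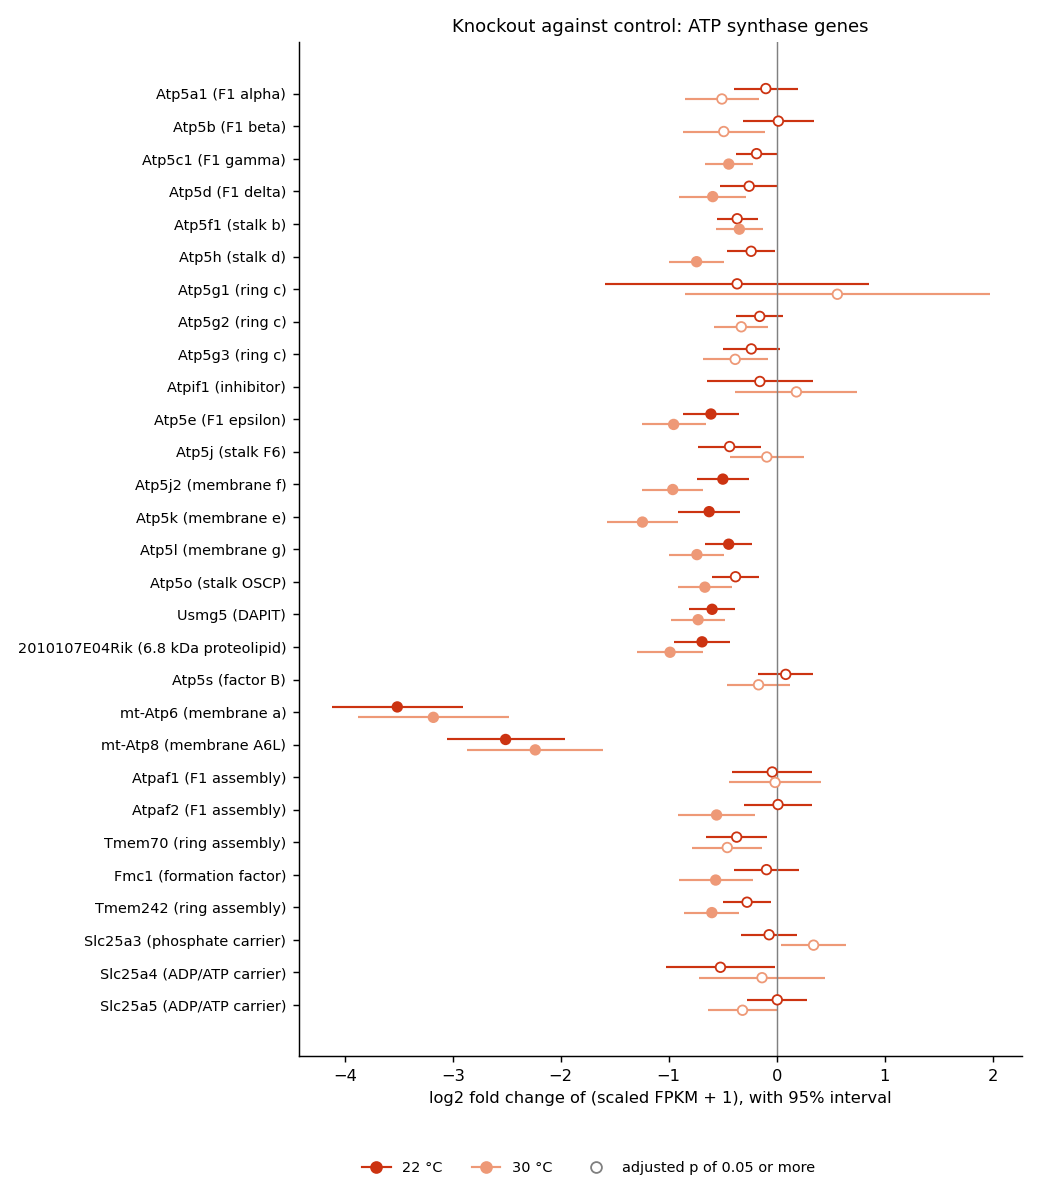
Log2 fold change of scaled FPKM plus 1, knockout against control (horizontal axis), for the 29 nuclear and mitochondrial genes of ATP synthase, its assembly and its carriers at 22 °C and 30 °C, with bars for the 95% interval and filled points for an adjusted p under 0.05. The mitochondrial genes lie at -2.24 to -3.51, far to the left of every nuclear gene. Atp5k, 2010107E04Rik, Atp5j2 and Atp5e lie further left than any of the 10 genes named first at both temperatures.

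The other genes of the complex were described by list. Of all genes, 1.06% were called lower at 22 °C. Among 9 further nuclear subunits 6 fell at that temperature, where none of the 10 genes above did, with a median of -0.50 over the 9. They were 2010107E04Rik (6.8 kDa proteolipid, -0.69), Atp5k (subunit e, -0.63), Atp5e (epsilon, -0.61), Usmg5 (the DAPIT protein, -0.60), Atp5j2 (subunit f, -0.50) and Atp5l (subunit g, -0.44). The proteolipid and subunits e, f, g and DAPIT are small proteins of the membrane sector that help ATP synthase dimers form and hold, and epsilon belongs to the central stalk. At 22 °C this count was unstable: it was 1 without knockout 2 (Usmg5), 2 without control 1, 3 without control 2, knockout 4 or the R controls, 2 with FPKM as deposited, and 0 with quantile normalization or with only the groups at 22 °C in the fit. Cell type markers differed between the same animals: the markers of adipocytes in general summed to 12797 to 15772 in controls and 9411 to 10961 in knockouts, with 1 of 5 called lower, and the macrophage markers to 35.3 to 52.7 and 60.8 to 179, with 0 of 10 called by limma and 4 at an unadjusted p under 0.05. The macrophage marker Mmp12 was at 0 in controls 2 and 3. Neither sum overlapped between the genotypes, whereas the brown adipocyte sums did (8283 to 11917 and 7251 to 11413, with 1 of 9 called higher). Fabp4 made up most of the sum for adipocytes in general (10678 to 13712 in controls and 7603 to 9030 in knockouts). Adipoq was lower in knockouts too (647 to 859 and 337 to 540). Plin1 (409 to 822 and 826 to 896) and Pparg (132 to 201 and 213 to 244) were higher in knockouts without overlap. Lipe overlapped (240 to 392 and 349 to 396). The part of these markers in the subunit values was not tested.

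At 30 °C 7 of the 9 fell, beside 5.29% of all genes, and all 7 were called in each alternative. Atp5k fell by 1.24, 2010107E04Rik by 0.99, Atp5j2 by 0.96, Atp5e by 0.95, Atp5l by 0.74, Usmg5 by 0.73 and Atp5o (the OSCP subunit, which joins the peripheral stalk to the head) by 0.66 on the log2 scale. Atp5k, the strongest, was at 442, 581 and 466 in controls and at 217, 206 and 200 in knockouts. Atp5j (stalk subunit F6, -0.09, adjusted p = 0.757) and Atp5s (factor B, -0.17, adjusted p = 0.465) did not pass.

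The mitochondrially encoded subunits stood apart in size. mt-Atp6, the a subunit that forms the proton path with the c ring, was at 286, 267, 180 and 365 in controls at 22 °C and at 24.4, 22.7, 21.1 and 21.4 in knockouts. That is a log2 fold change of -3.51 (SE 0.28, adjusted p = 8.86e-06), with -3.18 (adjusted p = 0.000153) at 30 °C. mt-Atp8, the A6L subunit, fell by 2.51 at 22 °C and fell by 2.24 at 30 °C. Both genes lie on 1 transcript and overlap by 43 bases, and mt-Atp6 shares 1 base with mt-Co3, so their separate values are uncertain.

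Assembly factors help to build the complex, and carriers bring its substrates and take away ATP. At 22 °C 0 of 5 assembly factors and 0 of 3 carriers were called, with 2 and 1 of them at an unadjusted p under 0.05. At 30 °C 3 of 5 assembly factors fell, beside 5.29% of all genes. The 3 were Tmem242 (assembly of the c ring, -0.60), Fmc1 (a formation factor, -0.56) and Atpaf2 (assembly of the head, -0.56). Tmem70, which also serves ring assembly, was at -0.46 (adjusted p = 0.0600). Tmem242 alone was called without control 1 or 2 or without knockout 1 or 3, and no assembly factor with FPKM as deposited. The phosphate carrier Slc25a3 (0.34, adjusted p = 0.122) and the ADP/ATP carriers Slc25a4 (-0.14, adjusted p = 0.791) and Slc25a5 (-0.32, adjusted p = 0.182) did not pass.

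Ratios within a library need no scaling between libraries, and they were used to ask whether subunits kept their proportions. In each comparison 6 ratios were tested by exact two-sided permutation, with Benjamini-Hochberg adjustment over the 6. None reached an adjusted p under 0.05, and with 3 animals in a group none could. With 4 against 4, a ratio that alone separates fully could not pass either, since its permutation p of 0.0286 adjusts to 0.171. The RNA of mt-Atp6 and mt-Atp8 together, as a percent of Atp5a1 plus Atp5b, was 5.11, 5.32, 3.99 and 9.99 in controls at 22 °C and 0.530, 0.525, 0.478 and 0.471 in knockouts. The highest knockout was far below the lowest control (exact permutation p = 0.0286, adjusted 0.171). At 30 °C the percent was 4.52, 5.12 and 5.68 in controls and 1.14, 0.337 and 1.21 in knockouts (exact permutation p = 0.1, adjusted 0.6).

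The 5 tested proportions among nuclear genes overlapped between the genotypes at both temperatures. The 3 ring genes together came to 11.7% of Atp5a1 plus Atp5b in controls and 9.98% in knockouts at 22 °C, and to 11.8% and 13.5% at 30 °C. Atp5a1 was 43.5% of Atp5b in controls and 40.2% in knockouts at 22 °C (exact permutation p = 0.0571, adjusted 0.171) and 36.6% and 36.2% at 30 °C. Within each genotype this percent did not overlap between the temperatures (exact permutation p = 0.0571 in each, adjusted 0.171 in controls and 0.0857 in knockouts). Atpif1 was 0.0678% and 0.0558% of Atp5a1 plus Atp5b at 22 °C and 0.0952% and 0.173% at 30 °C. The 9 further subunits, given without a test, summed to 96.2% of Atp5a1 plus Atp5b in controls and 65.6% in knockouts at 22 °C, with the R controls at 87.3% and 130%, and to 68.4% and 54.9% at 30 °C. This sum did not overlap between the genotypes at either temperature (at most 68.5% in knockouts and at least 82.2% in controls at 22 °C, 65.9% and 66.7% at 30 °C).

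**Figure D3:**
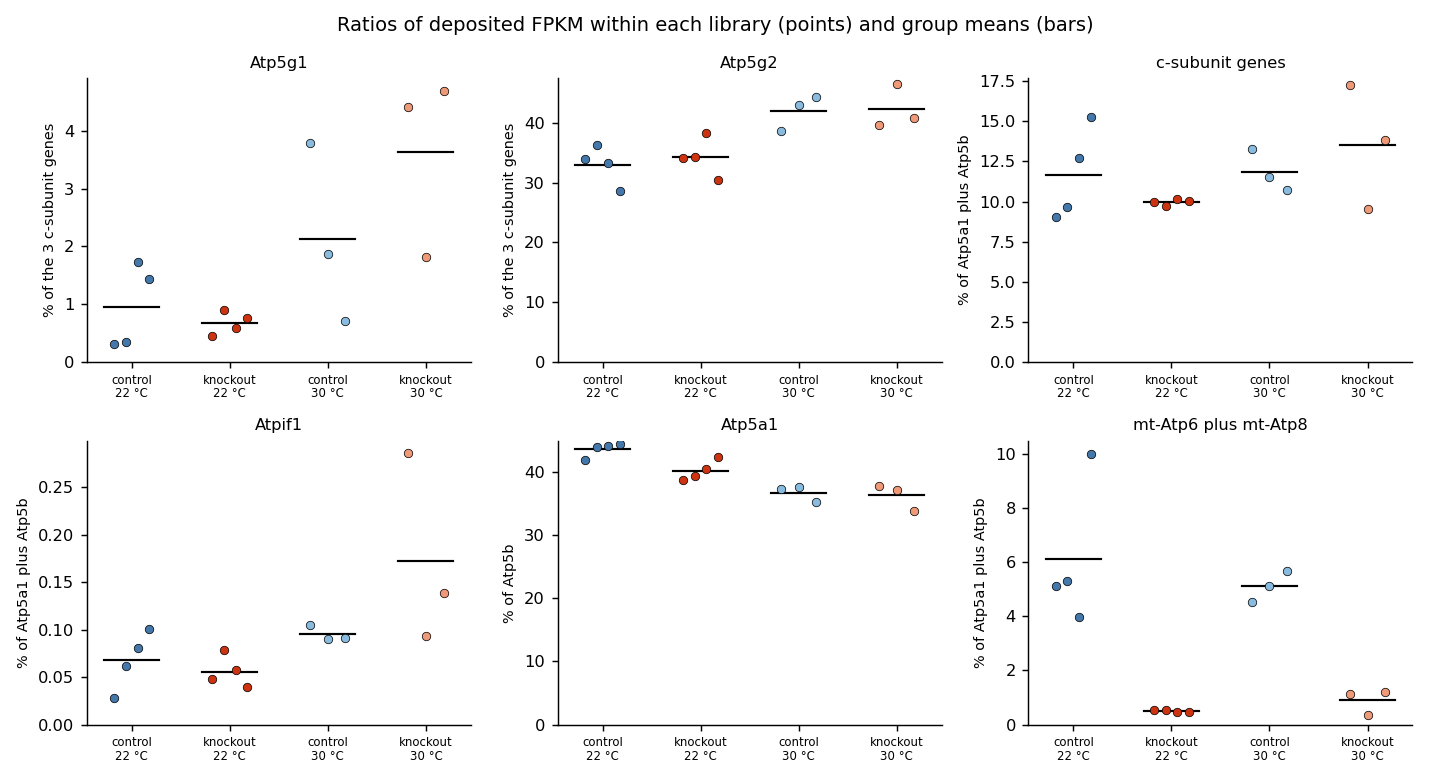
Ratios of FPKM within each library as percent (vertical axes, linear, from 0) by group, with points for animals and bars for group means. The mitochondrial ratio separates knockouts from controls at both temperatures. The Atp5g2 share and Atp5a1 as a percent of Atp5b each separate 22 °C from 30 °C in both genotypes.

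The 3 ring genes, which encode the same mature protein, differed in RNA. Atp5g3 had the most, and Atp5g2 gave 33.0% of the summed ring RNA in controls and 34.3% in knockouts at 22 °C. At 30 °C the Atp5g2 share was 42.0% and 42.3%, and no animal at 30 °C overlapped with one of the same genotype at 22 °C (exact permutation p = 0.0571 in each genotype, the smallest that 4 against 3 allows; adjusted 0.171 and 0.0857). Atp5g1 gave 0.958% and 0.671% at 22 °C and 2.12% and 3.64% at 30 °C.

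Atp5g1 had the widest spread within groups of the 10 genes: the SE of its log2 knockout difference at 22 °C was 0.57, and the next widest was that of Atpif1 at 0.23. At 22 °C controls 1 and 2 were at 1.69 and 1.80, controls 3 and 4, with R identifiers, at 10.6 and 8.41, and the knockouts at 2.26, 4.06, 2.89 and 3.62. The summed skeletal muscle markers ran the same way: 679 and 524 in controls 1 and 2, 8036 and 4634 in controls 3 and 4, and 649, 1355, 1206 and 1669 in the knockouts. At 30 °C controls had 15854, 5435 and 26.6 and knockouts 10110, 2419 and 7777, again close to the order of Atp5g1. Control 3 at 30 °C was the exception, with the fewest muscle transcripts of all 14 animals and an Atp5g1 level of 3.76, inside the range of the knockouts at 22 °C. The part of muscle RNA in the Atp5g1 values was not tested beyond a covariate. With a muscle score as covariate the knockout difference of Atp5g1 at 30 °C went from 0.56 to -0.062. In controls the same covariate gave a call for Atp5g1, lower at 22 °C than at 30 °C. The reported limma fit did not call it there (adjusted p = 0.171).

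**Figure D4:**
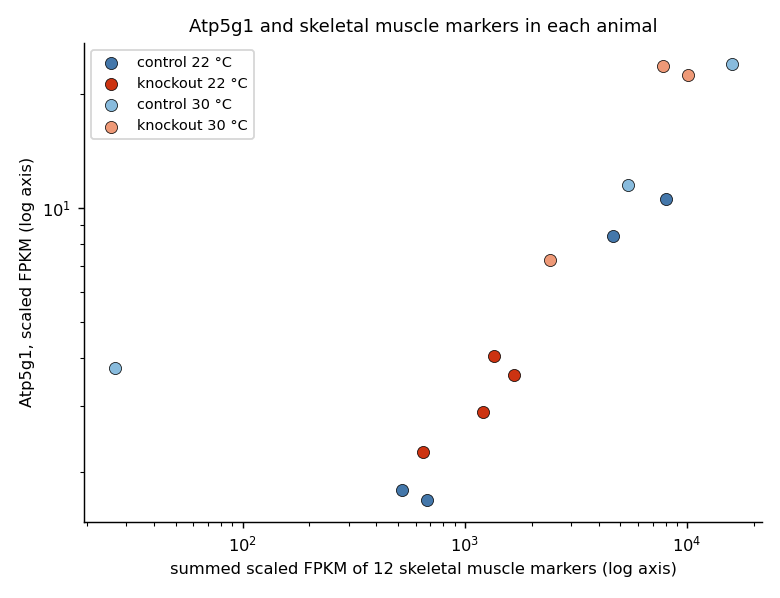
Atp5g1 scaled FPKM (vertical, log axis) against the summed scaled FPKM of 12 skeletal muscle markers (horizontal, log axis), a point per animal, colours for the 4 groups. The 3 animals with Atp5g1 at 22.3 to 23.9 have marker sums of 7777 to 15854, and control 3 at 30 °C stands alone at the left at 26.6 and 3.76.

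The genes with the profile most like Atp5g1 over the 14 animals were Pdlim7, Neurl1a, Plpp7, Prr33 and Hspb2. Likeness was the root mean square difference of log2 values centred on each gene's mean, which was 0.23 for Pdlim7 and 0.28 for Hspb2, while the spread of Atp5g1 itself was 1.12. For Atpif1 they were Impdh2, Pld2, Nagk, Flot1 and Amdhd2 (0.18 to 0.20, own spread 0.46). Both lists were taken from 7742 genes, all points sharing the same libraries and scaling.

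Between animals at 22 °C and at 30 °C within a genotype, members differed in both directions. Sex-linked transcripts separate the same animals, so temperature and sex cannot be told apart here. In controls Atp5f1 (0.56, adjusted p = 0.00117) and Atp5c1 (0.26, adjusted p = 0.0450) were higher at 22 °C and Atp5g2 was lower (-0.43, adjusted p = 0.00878), where 18.2% of all genes were called higher and 20.5% lower, shares near those of the 10. With 237 to 288 at 22 °C against 166 to 189 at 30 °C, Atp5f1 did not overlap. Atp5g2 was at 168 to 202 against 236 to 265. Both calls were made in all 26 alternatives, while Atp5c1 was lost in most, such as without control 1 at 22 °C (adjusted p = 0.117). The median of the 10 was -0.01, beside -0.05 over all genes. Several cell type marker sums did not overlap between the temperatures in controls either. At 22 °C and 30 °C the brown adipocyte markers summed to 8283 to 11917 and 6009 to 8016 (6 of 9 called higher at 22 °C), and those of adipocytes in general to 12797 to 15772 and 9790 to 11634 (1 of 5 higher and 2 lower). The macrophage markers summed to 35.3 to 52.7 and 80.7 to 369 (6 of 10 lower), and the 3 white adipocyte markers to 85.3 to 267 and 382 to 568 (2 of 3 lower). The part of these markers in the 3 calls was not tested.

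In knockouts 4 members were higher at 22 °C and 2 were lower, beside 21.8% and 29.3% of all genes. The higher ones were Atp5h (0.58, adjusted p = 0.00103), Atp5a1 (0.55, adjusted p = 0.00785), Atp5f1 (0.54, adjusted p = 0.00061) and Atp5c1 (0.52, adjusted p = 0.00083). The lower ones were Atp5g1 (-2.02, adjusted p = 0.0146) and Atpif1 (-0.85, adjusted p = 0.0115). Atp5g1 was at 2.26 to 4.06 at 22 °C and at 7.29 to 23.6 at 30 °C, and the summed muscle markers were 649 to 1669 and 2419 to 10110 in the same animals. The Atp5g1 call was lost without knockout 1 or knockout 3 at 30 °C and that of Atpif1 without knockout 1 (adjusted p up to 0.0650 and 0.0715), and with the muscle score as covariate Atp5g1 was at -1.21 (adjusted p = 0.0065). Cell type markers separated these knockouts as well. The macrophage markers summed to 60.8 to 179 at 22 °C and 571 to 2078 at 30 °C, with 10 of 10 called lower at 22 °C, and the brown adipocyte markers to 7251 to 11413 and 2863 to 4050, with 9 of 9 called higher. The markers of adipocytes in general summed to 9411 to 10961 and 5471 to 7513 (2 of 5 higher), and the white adipocyte markers to 78.7 to 146 and 218 to 288 (2 of 3 lower). Their part in the differences of the 10 genes was not tested.

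Both temperature comparisons use animals of the knockout comparisons, so their values are not independent of those. Atp5f1 had close to the same temperature difference in both genotypes, 0.56 and 0.54, and Atp5g2 had -0.43 and -0.25 (the second with an adjusted p of 0.0640). Among the 9 further subunits 5 were higher at 22 °C in controls and 7 in knockouts, beside 18.2% and 21.8% of all genes. The largest difference was that of 2010107E04Rik, at 0.97 and 1.26. The 5 became 2 without control 1 at 30 °C and 3 without control 3 at 30 °C or controls 1 or 2 at 22 °C. mt-Atp6 and mt-Atp8 did not pass in either genotype.

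**Figure D5:**
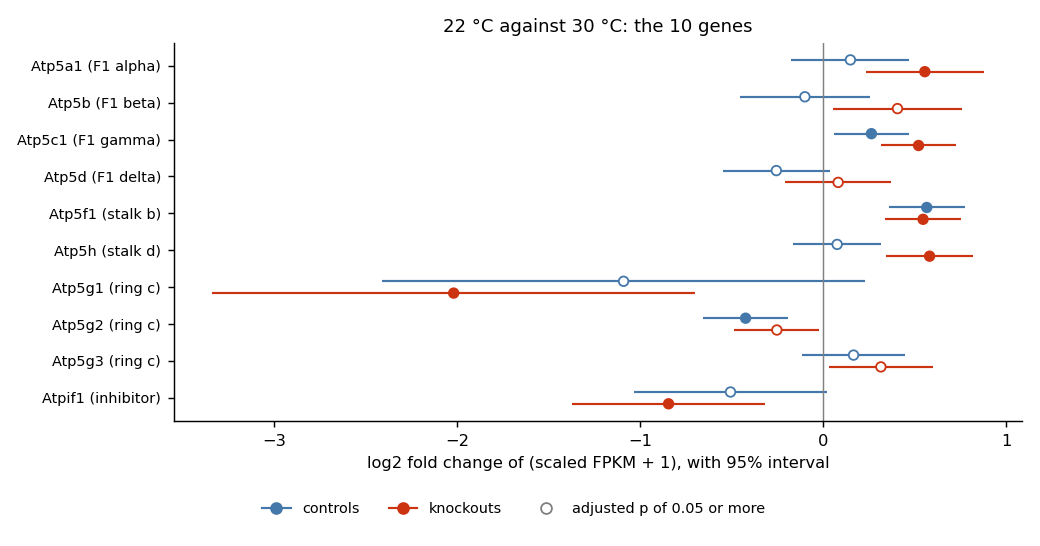
Log2 fold change of scaled FPKM plus 1, 22 °C against 30 °C (horizontal axis), for the 10 genes, controls and knockouts apart, with bars for the 95% interval and filled points for an adjusted p under 0.05. Atp5f1 and Atp5c1 lie to the right in both genotypes, and Atp5g1, Atp5g2 and Atpif1 lie to the left.

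Whether the knockout difference itself differed between the housing groups was tested as the difference between the effects at 22 °C and at 30 °C. Sex-linked transcripts separate these groups too, so dependence on temperature and on sex cannot be told apart. No member passed, and 0% of all genes did with limma, with 2 members and 1692 of all genes at an unadjusted p under 0.05. The 2 members were Atp5h (0.51, 95% interval 0.17 to 0.84, adjusted p = 0.224) and Atp5b (0.51, 0.0044 to 1.01, adjusted p = 0.383). With sample weights Atp5h was called. So the fall of Atp5h, Atp5d, Atp5c1 and Atp5f1 at 30 °C is not shown to differ from the change at 22 °C, and for Atp5f1 the 2 effects were -0.37 and -0.35.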

How the data were processed

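Brown adipose RNA of 14 mice was measured by RNA-seq. The authors deposited FPKM per gene and animal. The submitters' processing notes name mm9. The aligner, counting tool, strand use and annotation are not given in the sources used here, so coordinates come only from GENCODE M21 (GRCm38) and RefSeq (GRCm38.p6). Groups follow genotype and temperature in the labels.

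Libraries were brought to 1 scale by a median ratio of the deposited FPKM, taken over 10021 nuclear genes that reached an FPKM of 1 in all of them. Log2(scaled FPKM + 1) was fitted over all 13079 genes and 4 groups with limma 3.58.1 (R 4.3.3, mean-variance trend), with Benjamini-Hochberg adjustment over all genes, two-sided, and a threshold of 0.05. A pseudocount understates changes of low genes. P-values measure the spread between these animals. Depth was recovered from deposited FPKM of single-transcript genes, whose low values were whole fragments (within 0.05) in 91.5 to 93.0% of cases; such fragment numbers cover counting error only. No pair of replicates had identical values. Ratios used deposited FPKM and exact permutation tests.

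The genes named are the 10 members, 19 other ATP synthase genes in 4 lists, Lrpprc, Ucp1, and the 5 genes nearest in profile to Atp5g1 and to Atpif1 with a mean FPKM of at least 5. Markers are named as lists. Members and lists were chosen with earlier results of these data known. Alternatives were a pseudocount of 0.1, no filter, a mean FPKM of at least 5, deposited FPKM, quantile normalization, an equal nuclear total, separate fits per comparison, other limma variances and weights, leaving out the R controls, a muscle covariate, and leaving out each animal.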

Additional observations from a re-analysis of the deposited data

Results flagged for a closer look

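Each group of 4 animals was checked for 1 animal standing far from the other 3, in 70 groups of values, and 3 were found; chance alone gives about 1 in 20. Atp5a1 was at 1305 scaled FPKM in knockout 2 at 22 °C, against 1411 to 1424 in the other knockouts. Atp5l was at 473 in the same animal, against 579 to 597. Atpaf1 was at 7.07 in control 4 at 22 °C, an animal with an R identifier, against 13.9 to 14.2 in the other controls.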

How the results depend on the processing

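Limits: groups hold 3 or 4 animals, the level of Atp5g1 and Atpif1 is low, and 7 of the 10 knockout directions at 22 °C turned with FPKM as deposited. Of the 10 genes, 1 was called at 22 °C with a mean FPKM of at least 5, with sample weights or without the R controls (Atp5f1 each time), and 0 to 1 with 1 animal left out. At 30 °C, 1 was called with FPKM as deposited or quantile normalization, 2 with an equal nuclear total, 8 with sample weights, and 1 to 6 with 1 animal left out. For temperature in controls, 6 were called with sample weights or without the R controls, and for the difference of effects 1 with sample weights. The cause was not tested.

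The median of the 10 genes at 22 °C was 0.069 as deposited, 0.0035 with quantile normalization and -0.069 with an equal nuclear total; at 30 °C these were -0.12, -0.13 and -0.26. The median of all genes as deposited was 0.24 and 0.31, so the 10 genes lay 0.17 and 0.42 below it; with quantile normalization it was 0.010 and -0.043, and the 10 genes lay -0.0066 and -0.083 from it, against -0.21 and -0.48 in the reported fit. For temperature in controls the median was 0.075 with a mean FPKM of at least 5, -0.12 as deposited and -0.13 with quantile normalization; in knockouts it was 0.26 as deposited and 0.23 with quantile normalization.

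Directions turned as follows for knockout against control at 22 °C. As deposited, Atp5a1 was at 0.20, Atp5c1 at 0.12, Atp5d at 0.050, Atp5h at 0.068, Atp5g2 at 0.15, Atp5g3 at 0.070 and Atpif1 at 0.065. With quantile normalization Atp5a1 was at 0.30, Atp5c1 at 0.039, Atp5h at 0.019 and Atp5g2 at 0.023, and with an equal nuclear total Atp5a1 at 0.045. Atp5b was at -0.12 with sample weights, -0.19 without the R controls and -0.011 with the muscle covariate. Atp5g1 was at 0.35 with sample weights and 0.60 without the R controls, and Atpif1 at 0.11 without them. At 30 °C Atp5b was at 1.0 with quantile normalization and Atp5g1 at -0.062 with the muscle covariate.

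For temperature in controls, Atp5a1 was at -0.13 with quantile normalization, Atp5b at 0.0058 with sample weights and 0.10 without the R controls, and Atp5h at -0.030 as deposited and -0.0051 with quantile normalization. In knockouts Atp5d was at -0.019 as deposited. For the difference of effects Atp5f1 was at 0.0085 with sample weights and Atp5g1 at 0.038 without the R controls. Without the R controls, knockout minus control at 22 °C in percentage points turned to 0.339 for the Atp5g1 share, -0.822 for the Atp5g2 share, 0.626 for the ring genes and 0.0113 for Atpif1.

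With 1 animal left out at a time, signs also turned within these ranges. For the knockout at 22 °C they were -0.10 to 0.11 for Atp5b and -0.70 to 0.0050 for Atp5g1. At 30 °C they were -0.064 to 1.13 for Atp5g1 and -0.076 to 0.39 for Atpif1. For temperature in controls the range was -0.19 to 0.019 for Atp5b, and for the difference of effects -0.073 to 0.052 for Atp5f1. In percentage points, the Atp5g2 share ranged over -0.188 to 2.54 for the knockout at 22 °C and -1.83 to 1.61 at 30 °C, the ring genes over -0.173 to 3.7 at 30 °C, and Atp5a1 over Atp5b -1.18 to 0.816 at 30 °C. For temperature in controls the ring genes ranged over -1.36 to 0.736 and the mitochondrial genes over -0.301 to 1.7. Over all single genes and ratios, 997 values under the other settings and 1487 with 1 animal left out kept their direction and their side of the threshold. A call was lost in 65 and 102 and gained in 33 and 14, and 32 and 21 changed direction. Part of the kept values was fixed in advance. A ratio does not change without an animal of a group not compared, and ratios with 3 animals in a group cannot pass.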
